A study of Rattus norvegicus with 10 samples.

Results

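Solute carriers (Slc genes) encode the membrane proteins that move sugars, amino acids, lipid precursors, metals and ions into cells and between organelles. The members described here are the genes of the deposited comparison table whose rat symbol has the form Slc, family number, letter and member number, without the mitochondrial Slc25 family (44 genes) and without 7 genes under the symbols Slc14a1, Slc1a2, Slc1a3, Slc7a11, Slc40a1 and Slc11a2. Of 287 genes with such a symbol, 236 remained, out of 16129 genes in that table. They carry 235 symbols, because Slc29a2 stands for 2 gene IDs between which reads could have been split, and they were sorted into 16 classes by what they carry. In 4 of them (Slc4a1ap, Slc7a6os, Slc9a3r1 and Slc9a3r2) only the symbol matches, since these genes encode partner or unrelated proteins that are not transporters.

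RNA was sequenced from primary rat oligodendrocyte progenitor cells (OPCs) and from oligodendrocytes (OLs) grown from them, in 10 libraries, 2 for each of 5 groups. The OLs had been transfected with a mimic of miR-145 (OL miR-145), with mimics of miR-145 and miR-219 (OL miR-145+miR-219) or with a scrambled mimic (OL miR-ctl), and were collected after 5 days of differentiation (DD5) in medium with T3, CNTF and N-acetyl cysteine. OPCs were given an antisense inhibitor against miR-145 (OPC anti-miR-145) or a scrambled inhibitor (OPC anti-miR-ctl), were kept in medium with FGF2 and PDGFAA, and were collected 24 h later. Each oligonucleotide was used at 30 nM, and every group came from cortices of wild-type Sprague-Dawley pups of postnatal days 1 to 3, by way of mixed glial cultures from which OPCs were shaken off and enriched by differential adhesion. Such cultures can keep some astrocytes and microglia, and no sorting step followed. The OL miR-145 libraries were grouped by their titles, which name miR-145 alone, whereas a treatment tag on the same samples also names miR-219. The labels do not say what separates 2 replicates. A general statement of the study counts each culture from a separate animal as a replicate of primary cells, but it names mice, whereas these cells came from rats. The p-values measure the spread between these libraries.

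OLs build a large area of lipid-rich membrane, and the supply of choline, creatine, lactate, sulfate and nucleotide sugars to a cell passes through solute carriers. Some of these have a known place in glia. Slc16a1 (MCT1) carries lactate between OLs and axons, Slc12a2 (NKCC1) sets chloride, and Slc2a1 (GLUT1) takes up glucose. Many others sit in lysosomes, the Golgi apparatus or synaptic vesicles, and several, such as Slc11a1 and Slc15a3, are known mainly from macrophages and microglia.

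The microRNAs supplied as mimics act through their seed, bases 2 to 8 from the 5′ end, which pairs with target mRNAs. The mature sequences are shown with that seed in capitals, since they are the agents whose effect on the solute carriers was measured. Both come from RefSeq (GRCr8), where miR-145-5p lies on chromosome 18 from 57370033 to 57370055 and miR-219a-5p on chromosome 3 from 33516561 to 33516581, each on the minus strand. The sample labels name the second only as miR-219.
rno-miR-145-5p: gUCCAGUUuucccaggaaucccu
rno-miR-219a-5p: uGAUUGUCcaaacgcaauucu
The seeds of the 2 microRNAs differ. Sites for them in the solute carrier transcripts were not analysed here.

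Library totals ran from 33505706 to 42684206 estimated counts, and the 236 members took 0.883% to 1.26% of them. Values are given as CPM (a library's count scaled to a common total) after TMM scaling over all 10 libraries, with the 2 libraries of a group in the order of their replicate numbers. Fits used edgeR's quasi-likelihood test on the 4 libraries compared, and a gene was called when its p, adjusted over all genes tested by the method of Benjamini and Hochberg, was under 0.05. Log2 differences are followed by their standard error (SE). The summed CPM of 10 markers of maturing OLs was 1259.8 and 1328 in the OPC anti-miR-ctl libraries and 17620.2 and 32468 in the OL miR-ctl libraries, and that of 8 astrocyte markers was 794 and 763 against 6876 and 5874. Of the astrocyte markers, Aldh1l1 and Aqp4 were under 1 CPM in both OPC groups, and none was under 1 CPM in the OL groups. In each OL group the replicate 1 library held more astrocyte marker RNA and the replicate 2 library more OL marker RNA. The sum over 12 microglial markers was 1138 and 1057 CPM in the OPC anti-miR-ctl libraries and 414 and 617 in the OL miR-ctl libraries, and in whole cultures a change in the number of cells of a type cannot be told apart from a change in RNA per cell.

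Between 182 and 189 of the 236 members had a mean of at least 1 CPM in any given group. Of these, 175 reached 1 CPM in all 5 groups, whereas 39 members stayed under 1 CPM in every group, and none was at 0 counts in all libraries. Among members at 1 CPM in some group, the highest group mean was in OL miR-145 for 62, in OPC anti-miR-ctl for 47, in OPC anti-miR-145 for 43, in OL miR-ctl for 31 and in OL miR-145+miR-219 for 14. This tally was not made over all genes, so it does not show a trait of solute carriers. Genes are named below by a rule on p and on groups that do not overlap, 10 called genes per direction, together with 23 transporters with a known place in glia. Other genes shown as examples of a class were chosen after their values were seen, from those called in the full fit and with each library left out, unless stated otherwise.

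Control OLs were compared with control OPCs to see which solute carriers differ between these stages. The transporters of choline (Slc44a1), creatine (Slc6a8), carnitine (Slc22a5), lactate (Slc16a1), sulfate (Slc26a2) and bicarbonate (Slc4a4) were higher in OLs by log2 differences of 1.8 or more, whereas Slc11a1, Slc6a12, Slc28a2, Slc13a3 and Slc35d3 were lower by 4.6 or more. Of 225 members tested, 143 were called, 80 higher and 63 lower in OLs, which is 63.6% of them, and 57.5% of all genes tested were called. By direction, 28.8% of all genes were called higher and 28.7% lower, and the class counts below are to be read beside these shares. The median log2 difference was 0.05 over the members and 0.01 over all genes, and the median size of the difference without its sign was 0.87 against 0.58. Stage, medium, time after transfection and the kind of control oligonucleotide differ together here and cannot be told apart. The calls rested on both OPC control libraries, and fewer members, like fewer of all genes, were called when either was left out. Part of the members stayed called with each of the 4 libraries left out in turn, a count not made over all genes. When libraries were scaled by their totals alone the median of all genes shifted to -0.12, and 69 members were called higher and 74 lower, with 24.0% and 33.9% of all genes.

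**Figure D1:**
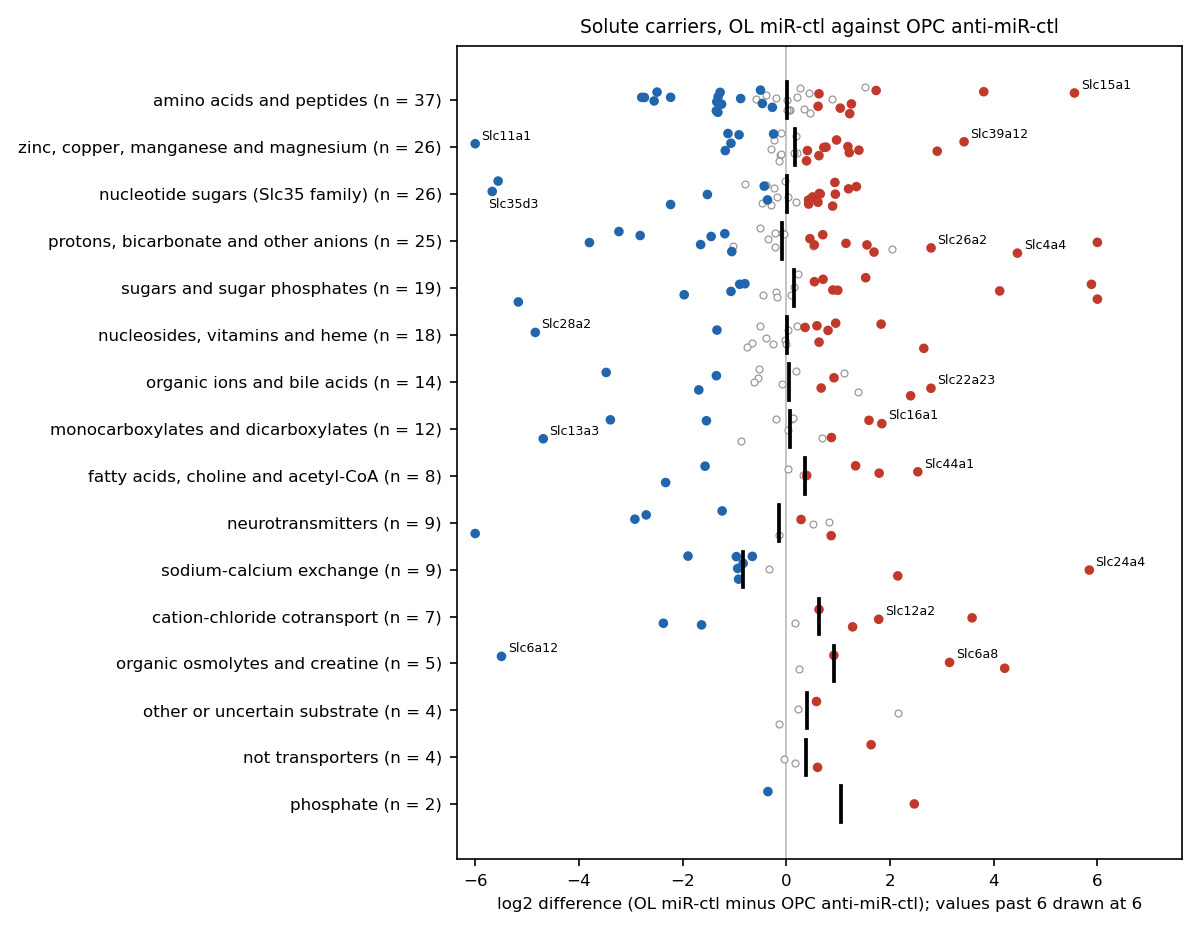
Log2 difference of OL miR-ctl against OPC anti-miR-ctl (x axis, values past 6 drawn at 6) for the 225 solute carriers tested, by class (y axis, n tested). Filled points are called genes, red higher and blue lower in OLs, open points are not called, and black bars are class medians. The sodium-calcium exchange class lies mostly left of 0 with a median of -0.83, and the osmolyte and cation-chloride classes have medians of 0.92 and 0.63.

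Among the few carriers of lipid precursors and osmolytes tested, more were called higher than lower in control OLs (28.8% and 28.7% of all genes). Of 8 genes for fatty acids, choline and acetyl-CoA, 4 were called higher and 2 lower, with a median of 0.36, and their summed CPM was 574 and 553 in OPCs and 1993 and 2037 in OLs. Slc44a1 (ENSRNOG00000055089), the choline transporter CTL1, was at 271 and 265 CPM in OPCs and 1528 and 1593 CPM in OLs, 5.80-fold higher (log2 difference 2.54 ± 0.08, adjusted p = 4.8e-05). Its relative Slc44a2 went from 63.8 and 60.6 to 162 and 153 CPM (adjusted p = 1.6e-04), and the fatty acid transporter Slc27a1 from 40.4 and 35.9 to 142 and 123 CPM (adjusted p = 1.9e-04). In all 3 both OL libraries lay well above both OPC libraries. Slc44a5, another member of the choline transporter-like family, fell from 10.8 and 10.7 to 2.39 and 1.87 CPM (-2.33 ± 0.18, adjusted p = 3.9e-04). Slc33a1, which brings acetyl-CoA into the endoplasmic reticulum, was at 50.1 and 47.8 CPM in OPCs and 52.2 and 48.7 CPM in OLs, and the groups overlapped (adjusted p = 0.71).

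Of the 5 carriers of organic osmolytes and creatine, 3 were called higher and 1 lower, with a median of 0.92. The creatine transporter Slc6a8 (ENSRNOG00000057620) stood at 66.5 and 61.5 CPM in OPCs and 598 and 541 CPM in OLs, 8.87-fold higher (log2 difference 3.15 ± 0.10, adjusted p = 4.7e-05). Both myo-inositol carriers were also called higher, the sodium-coupled Slc5a11 from 0.211 and 0.0822 to 3.19 and 2.49 CPM (adjusted p = 0.0011) and the proton-coupled Slc2a13 from 6.90 and 6.93 to 13.3 and 12.9 CPM (adjusted p = 0.0022). Slc6a12, the betaine and GABA transporter BGT1, moved the other way. It was at 98.6 and 79.9 CPM in OPCs and 1.83 and 2.15 CPM in OLs, 45-fold lower (log2 difference -5.49 ± 0.16, adjusted p = 4.5e-05). The taurine transporter Slc6a6 was at 66.5 and 58.5 CPM in OPCs and 61 and 87.1 CPM in OLs with overlapping groups, and it was not called (adjusted p = 0.31).

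Fuel carriers were split. Of 19 sugar and sugar phosphate carriers 8 were called higher and 5 lower (median 0.15), and of 12 carriers of mono- and dicarboxylates 3 were called higher and 3 lower (median 0.07). The lactate transporter Slc16a1 rose from 41.2 and 43.4 CPM in OPCs to 163 and 141 CPM in OLs (log2 difference 1.84 ± 0.10, adjusted p = 1.4e-04). Slc13a3 (ENSRNOG00000019118), a sodium-coupled carrier of dicarboxylates such as succinate and N-acetylaspartate, fell from 250.0 and 208 to 7.61 and 10.3 CPM (log2 difference -4.69 ± 0.19, adjusted p = 6.6e-05). Slc16a14, a member of the monocarboxylate family without a settled substrate, fell from 22.8 and 24.1 to 2.49 and 1.97 CPM (adjusted p = 9.7e-05). None of these 3 pairs of groups overlapped, and each stayed called with any library left out.

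The glucose transporter Slc2a1 was at 24.7 and 21.3 CPM in OPCs and 31.2 and 44.3 CPM in OLs, with an adjusted p of 0.025 that became 0.085 and 0.15 without OPC anti-miR-ctl replicates 1 and 2. Slc2a5, a fructose transporter known from microglia, was at 1.54 and 1.21 CPM in OPCs and 3.32 and 4.70 CPM in OLs (adjusted p = 0.0071, and 0.065 without OPC anti-miR-ctl replicate 2). Both were higher in each OL library than in either OPC library, and Slc2a5 was low in all of them, at 4.70 CPM or less. The sialic acid exporter of lysosomes Slc17a5 rose from 18.9 and 17.3 to 34.1 and 38.2 CPM (adjusted p = 0.0011), and the sugar phosphate carrier Slc37a1 from 1.71 and 2.03 to 24.1 and 40.8 CPM (adjusted p = 3.9e-04). Its relative Slc37a2, abundant in macrophages, fell from 14.1 and 14 to 8.27 and 7.95 CPM (adjusted p = 0.0032). Slc45a3, a sugar carrier of the sucrose transporter type, was low throughout and fell from 2.39 and 1.81 to 0.0503 and 0.0614 CPM (adjusted p = 4.9e-04).

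Amino acid and peptide carriers were called lower more often than higher, 15 against 8 of 37 (28.7% and 28.8% of all genes), with a median of 0.02. Slc7a5 (LAT1), which exchanges large neutral amino acids, fell from 447 and 422 CPM in OPCs to 264 and 209 CPM in OLs (-0.88 ± 0.13, adjusted p = 0.0033). Its partner chain Slc3a2 was at 306 and 303 CPM in OPCs and 345 and 483 CPM in OLs and was not called (adjusted p = 0.074). Slc7a8 (LAT2), which pairs with the same chain, rose from 15.1 and 13.5 to 31.1 and 35.7 CPM (adjusted p = 8.3e-04). The carriers of small neutral amino acids Slc1a4 (ASCT1, 69.7 and 70 to 27.7 and 28.6 CPM, adjusted p = 1.8e-04) and Slc1a5 (ASCT2, 14.7 and 15.3 to 3.34 and 1.75 CPM, adjusted p = 0.0016) fell, as did the cationic amino acid carrier Slc7a3 (138 and 137 to 35.5 and 13.2 CPM, adjusted p = 0.0066). Slc38a2 (SNAT2), which takes up glutamine and alanine, was at 229 and 209 CPM in OPCs and 245 and 263 CPM in OLs (adjusted p = 0.088).

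The 2 lysosomal carriers of histidine and peptides went in opposite directions. Slc15a4 rose from 49.1 and 45.7 to 165 and 152 CPM (1.73 ± 0.08, adjusted p = 1.1e-04), while Slc15a3 fell from 46.2 and 43 to 8.92 and 10.2 CPM (-2.23 ± 0.11, adjusted p = 1.1e-04). The groups did not overlap for either gene. Slc15a1, the peptide transporter PEPT1, went from 0.234 and 0.0822 to 10.1 and 5.59 CPM (adjusted p = 7.7e-04). Slc38a9, the lysosomal arginine sensor of the mTORC1 pathway, rose from 15.5 and 14.7 to 27.1 and 35.3 CPM (adjusted p = 0.0033).

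Of 9 neurotransmitter carriers 2 were called higher and 4 lower, with a median of -0.14. Slc32a1, which loads GABA and glycine into synaptic vesicles, was at 4.35 and 3.89 CPM in OPCs and had 0 counts in both OL libraries, so it was at least 49.2-fold lower in OLs (against a floor of 3 counts per library). The 5 neuronal markers found summed to 77.3 and 74.6 CPM in OPCs and 125 and 129 CPM in OLs, with 1 called higher and 3 lower, and their part in this difference was not tested. The glycine transporter Slc6a9 was at 43.3 and 38.7 CPM in OPCs and 51.2 and 48.9 CPM in OLs. Its adjusted p of 0.042 became 0.13 without OPC anti-miR-ctl replicate 1 and 0.32 without replicate 2, and it was 0.21 under library totals alone and 0.072 with DESeq2.

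Chloride and bicarbonate carriers changed in both directions. Of 7 cation-chloride cotransporters 4 were called higher and 2 lower, with a median of 0.63. Slc12a2 (NKCC1), which brings chloride into the cell, was at 90.3 and 93.4 CPM in OPCs and 203 and 430.4 CPM in OLs (log2 difference 1.78 ± 0.35, adjusted p = 0.0093). Its OL libraries differed widely from each other, and the adjusted p was 0.063 and 0.060 without OPC anti-miR-ctl replicates 1 and 2. Slc12a7 (KCC4), which carries chloride outward, rose from 11.3 and 9.18 to 92.6 and 154 CPM (3.58 ± 0.29, adjusted p = 4.4e-04), and Slc12a9 from 32 and 29.5 to 68.5 and 81.2 CPM (adjusted p = 6.0e-04). For both, each OL library was far above the OPC libraries.

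Among 25 carriers of protons, bicarbonate and other anions 9 were called higher and 7 lower (median -0.08). The sodium bicarbonate cotransporter Slc4a4 (ENSRNOG00000003134), well known from astrocytes, rose from 3.74 and 3.34 to 92.6 and 63.8 CPM, 22-fold (log2 difference 4.46 ± 0.23, adjusted p = 1.2e-04). Of the 8 astrocyte markers 7 were called higher in OLs and none lower (median log2 difference 2.33), and their part in the rise of Slc4a4 was not tested. Of the other sodium bicarbonate transporters, Slc4a10 fell from 89.8 and 84.5 to 15.2 and 9.46 CPM (adjusted p = 4.6e-04) and Slc4a7 from 79.7 and 74.2 to 35.9 and 31.9 CPM (adjusted p = 4.3e-04). The members of this family thus did not share a direction. The sulfate transporter Slc26a2 rose from 10.3 and 8.03 to 68.1 and 59.2 CPM (2.79 ± 0.15, adjusted p = 1.4e-04), and the anion exchanger Slc4a2 from 48.6 and 43.9 to 89.1 and 117 CPM (adjusted p = 0.0022). The sodium-proton exchangers of organelles fell, Slc9a7 from 50.7 and 44.4 to 20.9 and 13.9 CPM (adjusted p = 0.0030) and Slc9a9 from 41.3 and 37.9 to 19.2 and 19.2 CPM (adjusted p = 5.6e-04). Slc26a3 had 0 counts in OPCs and 0.653 and 0.583 CPM in OLs, at least 8.12-fold higher against the same floor.

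Calcium exchangers were mostly lower. Of 9 members of the Slc8 and Slc24 families 6 were called lower and 2 higher, with a median of -0.83, and their summed CPM was 246 and 240.1 in OPCs and 150.49 and 127 in OLs. Slc8a3 (NCX3) fell from 28.7 and 30.9 to 9.27 and 6.73 CPM (-1.90 ± 0.18, adjusted p = 7.2e-04) and the mitochondrial exchanger Slc8b1 from 27.2 and 24.9 to 12 and 15.3 CPM (adjusted p = 0.0043). Slc8a1 (NCX1) was at 67.6 and 59.9 CPM in OPCs and 45.3 and 35.8 CPM in OLs (adjusted p = 0.011, and 0.088 without OPC anti-miR-ctl replicate 1). Slc24a4 was the main exception, at 0.117 and 0.137 CPM in OPCs and 9.82 and 5.07 CPM in OLs (adjusted p = 5.5e-04). Slc24a2 was at 2.29 and 1.78 CPM in OPCs and 0.829 and 2.46 CPM in OLs, with overlapping groups (adjusted p = 0.63). Of the 2 phosphate carriers, Slc20a2 rose from 29.7 and 30.4 to 143 and 191 CPM (adjusted p = 2.2e-04) and Slc20a1 fell from 121 and 125 to 103 and 90.6 CPM (adjusted p = 0.022, and 0.11 and 0.16 without OPC anti-miR-ctl replicate 1 and 2).

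Among 26 carriers of zinc, copper, manganese and magnesium, 11 were called higher and 6 lower (median 0.17). Slc39a12, a zinc importer, rose from 4.80 and 5.65 to 49.9 and 62.8 CPM (3.43 ± 0.17, adjusted p = 1.1e-04), and the zinc importer Slc39a1 from 127 and 134 to 305 and 302 CPM (adjusted p = 2.2e-04). Slc39a10, of the same family of zinc importers, fell from 106 and 101 to 59 and 51.3 CPM (adjusted p = 0.0011). Slc11a1 (ENSRNOG00000014956), the metal carrier NRAMP1 of macrophage phagosomes, was at 205 and 172 CPM in OPCs and 3.17 and 2.58 CPM in OLs, 65.5-fold lower (log2 difference -6.03 ± 0.16, adjusted p = 3.9e-05). Of 12 microglial markers 6 were called lower in OLs and none higher, and their part in the fall of Slc11a1, Slc15a3 and Slc37a2 was not tested. The microglial sum was 1138 and 1057 CPM in OPCs and 414 and 617 CPM in OLs. Its markers differed among themselves. Itgam went from 105 and 89.7 to 7.69 and 10.8 CPM, while C1qa went from 86.8 and 80.8 to 100 and 146 CPM.

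The 27 Slc35 genes include the Golgi carriers of nucleotide sugars, and 11 of 26 tested were called higher and 6 lower (median 0.01). The UDP-galactose carrier Slc35a2 rose from 29.8 and 29.9 to 54.8 and 60.6 CPM (adjusted p = 7.9e-04). Slc35b2, which carries the sulfate donor PAPS, rose from 101 and 92.3 to 145.3 and 149.98 CPM (adjusted p = 0.0021), and Slc35d1, a carrier of UDP-glucuronic acid, from 24.5 and 24.4 to 47.2 and 46.7 CPM (adjusted p = 5.5e-04). The replicates of each were close to each other beside these differences. Slc35d3 fell from 227 and 226 to 5.08 and 3.78 CPM, 51-fold (log2 difference -5.67 ± 0.16, adjusted p = 4.3e-05), and Slc35f1 from 241 and 236 to 97.6 and 69.2 CPM (adjusted p = 0.0013).

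Of 18 carriers of nucleosides, vitamins and heme 7 were called higher and 2 lower (median 0.01). Slc29a3, the lysosomal nucleoside transporter ENT3, rose from 12.6 and 11.8 to 67.7 and 86 CPM (2.65 ± 0.14, adjusted p = 1.4e-04), and the vitamin C transporter Slc23a2 from 92.5 and 89 to 137 and 137 CPM (adjusted p = 0.0016). The 2 genes called lower were the concentrative nucleoside transporter Slc28a2 (50.9 and 47.9 to 2.04 and 1.38 CPM, -4.84 ± 0.19, adjusted p = 6.3e-05) and the thiamine transporter Slc19a2 (43.1 and 38.9 to 16.2 and 16.3 CPM, adjusted p = 3.0e-04). Slc48a1, which moves heme out of endosomes and lysosomes, was at 53.7 and 53.7 CPM in OPCs and 80 and 108 CPM in OLs (adjusted p = 0.0084, and 0.064 and 0.062 without OPC anti-miR-ctl replicates 1 and 2). Of 14 carriers of organic ions and bile acids 4 were called higher and 3 lower (median 0.06), while their summed CPM was 555 and 528 in OPCs and 1487 and 1366 in OLs. The carnitine transporter Slc22a5 rose from 8.40 and 7.23 to 40.4 and 42.3 CPM (2.40 ± 0.11, adjusted p = 9.6e-05), and Slc22a23, a member of the organic ion family without a settled substrate, from 93.1 and 90 to 652 and 618 CPM (2.79 ± 0.08, adjusted p = 4.5e-05). The medians of the members as a whole and of 5 classes (amino acids, mono- and dicarboxylates, nucleosides, Slc35 and organic ions) changed sign when libraries were scaled by their totals alone.

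**Figure D2:**
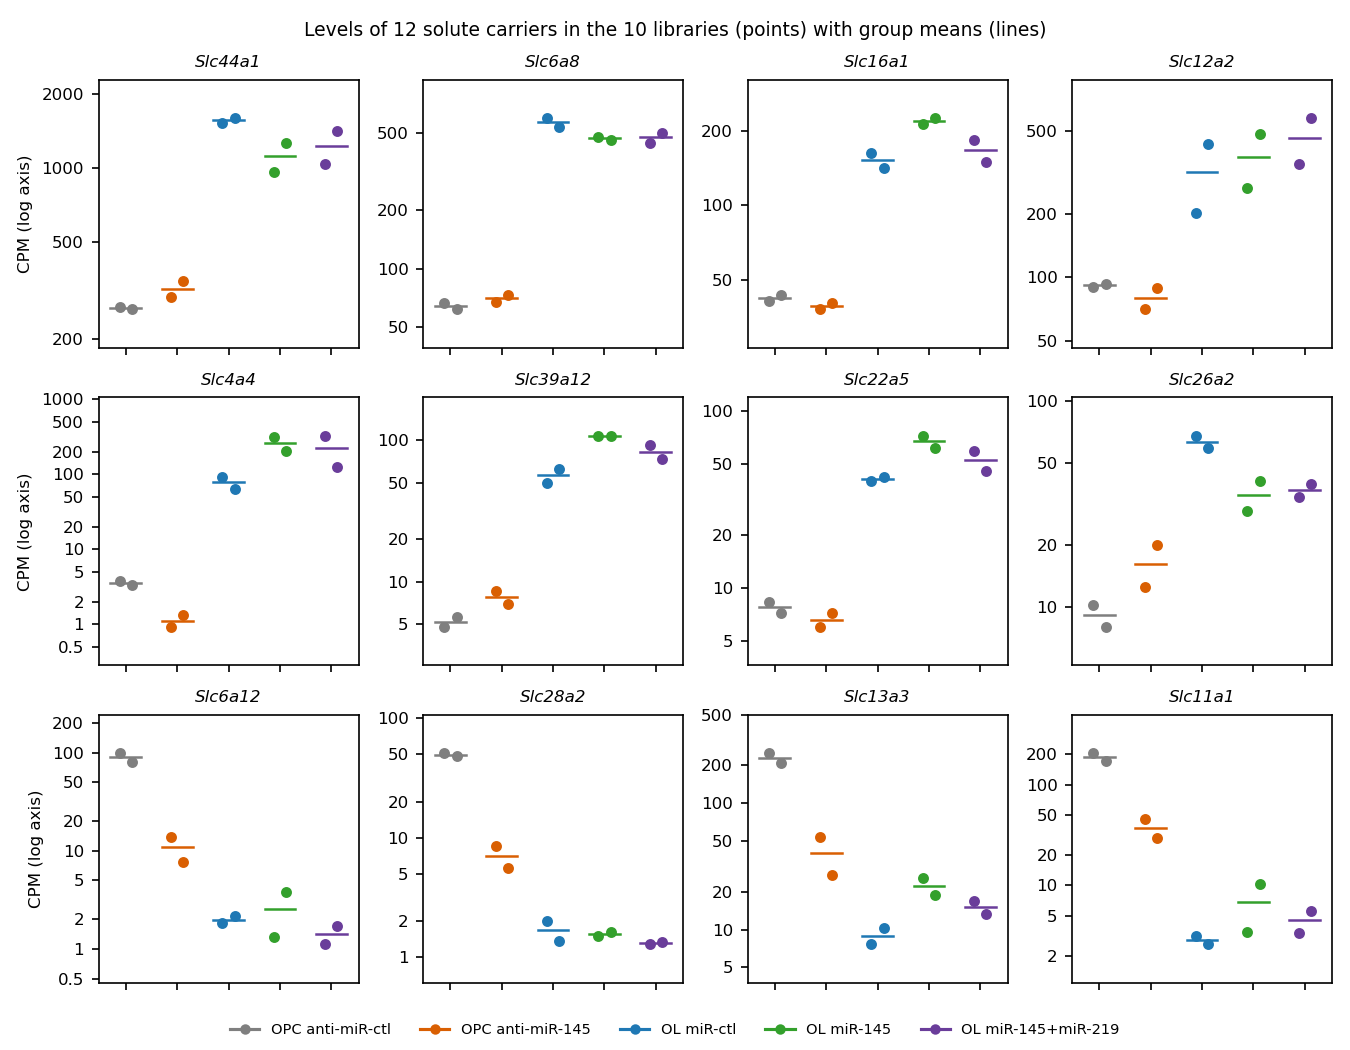
CPM (log y axis, scale set per panel) of 12 solute carriers in each of the 10 libraries (points), coloured by group, with group means as lines. Slc44a1, Slc6a8, Slc16a1, Slc12a2, Slc4a4, Slc39a12, Slc22a5 and Slc26a2 lie higher in all OL libraries than in the OPC libraries, and Slc6a12, Slc28a2, Slc13a3 and Slc11a1 are highest in the 2 OPC anti-miR-ctl libraries.

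The OL miR-145 group was compared with OL miR-ctl to see how solute carriers differed when miR-145 was supplied. No gene was called by edgeR's quasi-likelihood test without a replicate block, 0 of 221 members and 0.0% of 15461 genes. The smallest adjusted p was 0.158 for both. A fit with a replicate block did call members, as given in the closing section, but the labels do not say that replicate numbers pair libraries. At an unadjusted p under 0.05 stood 46 members, 39 higher and 7 lower with the mimic, against 13.4% of all genes (8.99% higher and 4.38% lower). Members whose groups did not overlap numbered 70 higher and 32 lower (22.9% and 24.4% of all genes), and 136 of 221 had a log2 difference above 0 (48.4% of all genes). The median log2 difference was 0.11 over the members and -0.01 over all genes. DESeq2 called 19 members, 16 of them higher (4.2% of all genes, 3.46% higher).

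Members past the unadjusted p were mostly higher with the mimic, and the 8 non-overlapping members with the smallest p in that direction carry zinc, bicarbonate, carnitine, glycine, dicarboxylates, sugars and magnesium. The zinc importer Slc39a12 was at 49.9 and 62.8 CPM in OL miR-ctl and 107 and 107 CPM in OL miR-145 (log2 difference 0.93 ± 0.14, adjusted p = 0.16). Slc4a4, the bicarbonate cotransporter, was at 92.6 and 63.8 CPM in controls and 317 and 205 CPM with the mimic (log2 difference 1.74 ± 0.28, adjusted p = 0.16), and the anion exchanger Slc4a3 at 7.79 and 6.39 CPM in controls and 15.2 and 14 CPM with the mimic (adjusted p = 0.16). In these 3 genes both mimic libraries lay above both controls. The carnitine transporter Slc22a5 was at 40.4 and 42.3 CPM in controls and 72.4 and 62.1 CPM with the mimic (log2 difference 0.71 ± 0.12, adjusted p = 0.16), and the glycine transporter Slc6a9 at 51.2 and 48.9 CPM in controls and 137 and 88.4 CPM with the mimic (log2 difference 1.17 ± 0.22, adjusted p = 0.16). The dicarboxylate carrier Slc13a3 was at 7.61 and 10.3 CPM in controls and 25.8 and 18.6 CPM with the mimic (log2 difference 1.32 ± 0.24, adjusted p = 0.16). For Slc6a9 and Slc13a3 the 2 mimic libraries were also well apart from each other. The sugar carrier Slc2a10 (1.83 and 2.00 CPM in controls and 4.82 and 5.15 CPM with the mimic, adjusted p = 0.16) and the magnesium carrier Slc41a3 (14 and 16 CPM in controls and 24.1 and 22.9 CPM with the mimic, adjusted p = 0.18) complete this set, whose p-values before adjustment ran from 9.7e-04 to 0.0043.

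The 8 non-overlapping members with the smallest p in the other direction carry sulfate, amino acids, peptides and choline. The sulfate transporter Slc26a2 was at 68.1 and 59.2 CPM in OL miR-ctl and 29.4 and 41 CPM in OL miR-145 (log2 difference -0.85 ± 0.19, adjusted p = 0.19). Slc1a1, a glutamate and cysteine transporter, was at 314 and 228 CPM in controls and 177 and 161 CPM with the mimic (log2 difference -0.67 ± 0.18, adjusted p = 0.22), and the lysosomal Slc15a4 at 165 and 152 CPM in controls and 121 and 116 CPM with the mimic (adjusted p = 0.22). In each the 2 mimic libraries lay below the 2 controls. The choline transporter Slc44a1 was at 1528 and 1593 CPM in controls and 962 and 1264 CPM with the mimic (log2 difference -0.48 ± 0.18, adjusted p = 0.35), and Slc22a23 at 652 and 618 CPM in controls and 448 and 502 CPM with the mimic (adjusted p = 0.29). The cationic amino acid carrier Slc7a3 (35.5 and 13.2 CPM in controls and 10 and 6.92 CPM with the mimic, adjusted p = 0.30), Slc7a14 (7.79 and 9.67 CPM in controls and 3.72 and 6.29 CPM with the mimic, adjusted p = 0.37) and the glutamine carrier Slc38a2 (245 and 263 CPM in controls and 177 and 218 CPM with the mimic, adjusted p = 0.38) make up the rest. Before adjustment the p-values of these 8 ran from 0.0056 to 0.054.

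**Figure D3:**
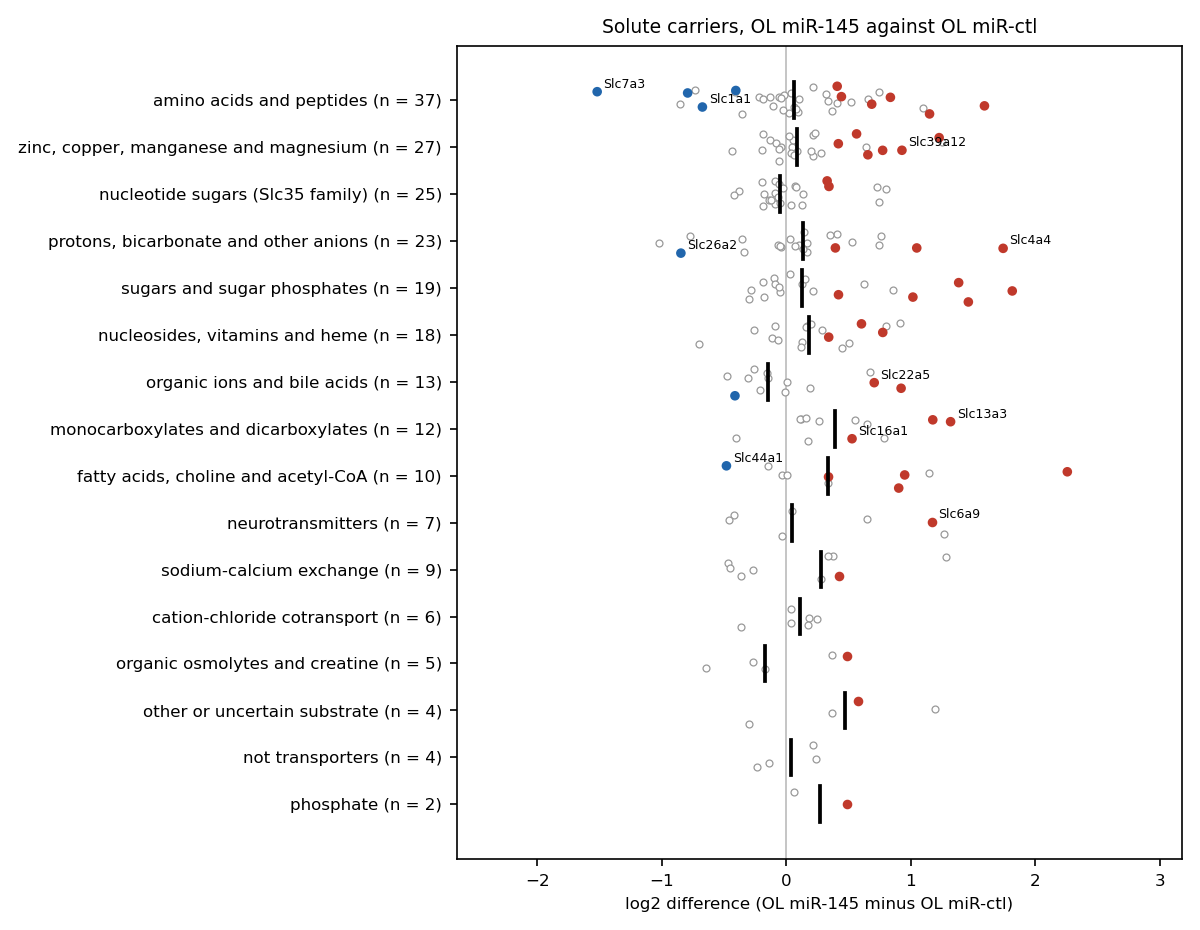
Log2 difference of OL miR-145 against OL miR-ctl (x axis) for the 221 solute carriers tested, by class (y axis, n tested). Filled points have an unadjusted p under 0.05 (red higher, blue lower with the mimic), and black bars are class medians. None was called after adjustment by edgeR without a replicate block (19 were by DESeq2). Of the 46 filled points 39 lie to the right of 0.

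By class, 11 of 12 carriers of mono- and dicarboxylates had a log2 difference above 0 (48.4% of all genes, median 0.39). The unadjusted p was passed by 3 of them (13.4% of all genes). The lactate transporter Slc16a1 was at 163 and 141 CPM in OL miR-ctl and 213 and 224 CPM in OL miR-145 (log2 difference 0.53 ± 0.12, adjusted p = 0.19). The median was 0.34 over fatty acid, choline and acetyl-CoA carriers, in which 4 of 10 passed the unadjusted p higher and Slc44a1 lower, and it was -0.05 over the Slc35 family and -0.15 over the carriers of organic ions. The sugar phosphate carrier Slc37a2 was at 8.27 and 7.95 CPM in controls and 13 and 19.7 CPM with the mimic (adjusted p = 0.19) and the heme carrier Slc48a1 at 80 and 108 CPM in controls and 143 and 142 CPM with the mimic (adjusted p = 0.24). Each mimic library exceeded both controls for Slc37a2 and Slc48a1. Adjusted p-values of other glial transporters were larger, among them Slc2a1 (adjusted p = 0.66), Slc12a2 (adjusted p = 0.83), Slc7a5 (adjusted p = 0.97), Slc3a2 (adjusted p = 0.86), Slc6a6 (adjusted p = 0.87), Slc17a5 (adjusted p = 0.93) and Slc33a1 (adjusted p = 0.93).

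Markers of other cells moved in the same libraries. The summed CPM of the 8 astrocyte markers was 6876 and 5874 in OL miR-ctl and 14461 and 9811 in OL miR-145, all 8 had a log2 difference above 0 (median 0.88), and none was called. Of 5 fibroblast and mural markers found, 4 could be tested, 3 were above 0 (median 1.86), and the sum was 96.4 and 59.8 CPM in controls and 57.7 and 68.6 CPM with the mimic. Most of that sum was Cspg4, which is also a progenitor marker, at 92.8 and 56.2 CPM in controls and 50.2 and 44.3 CPM with the mimic. Pdgfrb was at 2.66 and 2.33 CPM in controls and 5.16 and 5.88 CPM with the mimic, and Col1a1 at 0.930 and 1.17 CPM in controls and 1.76 and 16.4 CPM with the mimic. Slc4a4 and Slc6a9, known also from astrocytes, were higher in replicate 1 than in replicate 2 of both groups, as was the astrocyte sum, although not each of its markers. The 12 microglial markers summed to 414 and 617 CPM in controls and 413 and 1039 CPM with the mimic, all 12 above 0, and Slc11a1, at 3.17 and 2.58 CPM in controls and 3.43 and 10.2 CPM with the mimic, was highest in the OL miR-145 replicate 2 library, as they were. The part of these markers in the differences was not tested.

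Adding the miR-219 mimic was examined against both other OL groups. Against OL miR-ctl, 0 of 224 members and 0.0% of all genes were called, 29 members had an unadjusted p under 0.05 (6.19% of all genes), 21 higher and 8 lower (3.96% and 2.23% of all genes), and the median was 0.04 over members and 0.00 over all genes. Of the members, 131 had a log2 difference above 0 (50.3% of all genes). DESeq2 called 3 members (0.687% of all genes), Slc4a4, Slc26a2 and the Slc29a2 gene ENSRNOG00000020025. This gene was at 1.36 and 2.00 CPM in OL miR-ctl and had 0 counts in both OL miR-145+miR-219 libraries, at least 21.2-fold lower against 3 counts per library. The other gene ID under the symbol Slc29a2 was at 8.49 and 5.56 CPM in controls and 6.87 and 7.44 CPM with both mimics, so the split of reads between the 2 IDs leaves this difference uncertain. The sulfate transporter Slc26a2 was at 68.1 and 59.2 CPM in controls and 34.5 and 39.5 CPM with both mimics (adjusted p = 0.79), Slc4a7 at 35.9 and 31.9 CPM in controls and 24.8 and 24.3 CPM with both mimics (adjusted p = 0.80) and Slc1a1 at 314 and 228 CPM in controls and 181 and 176 CPM with both mimics (adjusted p = 0.80). Slc7a3, Slc15a1, Slc5a11 and Slc43a2 were the other non-overlapping members with small unadjusted p-values in that direction, from 0.026 to 0.047.

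On the higher side of the same comparison, the sugar carrier Slc2a10 was at 1.83 and 2.00 CPM in controls and 4.42 and 3.90 CPM with both mimics (adjusted p = 0.80), Slc37a2 at 8.27 and 7.95 CPM in controls and 11.7 and 14 CPM with both mimics (adjusted p = 0.80) and the glutamine carrier Slc38a1 at 73.4 and 70.4 CPM in controls and 103 and 90.1 CPM with both mimics (adjusted p = 0.80). Slc16a7, Slc4a3, Slc13a3 and Slc44a3 followed, with unadjusted p-values from 0.011 to 0.017. Slc39a2 had 0 counts in OL miR-ctl and 0.173 and 0.168 CPM with both mimics, at least 2.04-fold higher against 3 counts per library. Slc4a4 was at 328 and 126 CPM with both mimics (adjusted p = 0.80), with the replicate 1 library far above the other. Both comparisons with OL miR-ctl use the same control libraries, so they are not separate evidence.

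Between OL miR-145+miR-219 and OL miR-145, 0 of 224 members and 0.0% of all genes were called by edgeR, DESeq2 called 0 members (0.0581% of all genes), and 5 members had an unadjusted p under 0.05 (1.47% of all genes, 1.14% lower), each lower with both mimics. These were the sugar carrier Slc2a12 (11.2 and 12.5 CPM with miR-145 alone against 8.92 and 7.55 CPM with both), the amino acid exchanger Slc7a8 (55.8 and 91.9 against 40 and 44.1), the lactate transporter Slc16a1 (213 and 224 against 184 and 149), Slc39a12 (107 and 107 against 91.7 and 73.5) and Slc13a3 (25.8 and 18.6 against 16.7 and 13.3). Their adjusted p-values were all 1. The groups did not overlap for any of the 5. Of the 224 members, 83 had a log2 difference above 0 (49.3% of all genes), the median was -0.07 over members and 0.00 over all genes, and 38 members were lower and 14 higher without overlap (11.2% and 13.6% of all genes). Slc46a3, Slc2a4 and Slc22a5 had the next smallest p-values in that direction, from 0.053 to 0.074, and the 8 non-overlapping members on the higher side, Slc26a7, Slc24a5, an Slc29a2 gene, Slc4a1ap, Slc37a3, Slc2a3, Slc20a2 and Slc12a3, had p-values from 0.074 to 0.31.

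The inhibitor of miR-145 was compared with its control in OPCs, 24 h after transfection. The carriers of betaine (Slc6a12), nucleosides (Slc28a2), dicarboxylates (Slc13a3) and phagosomal metals (Slc11a1) fell by log2 differences of 2.3 or more, and those of glutamine (Slc1a5), fructose (Slc2a5), acetylcholine (Slc18a3) and monoamines (Slc18a2 and Slc29a4) rose. Of 222 members tested 74 were called, 38 higher and 36 lower with the inhibitor, which is 33.3% of them, and 28.1% of all genes were called, 12.1% higher and 16.0% lower. The median log2 difference was 0.02 over members and 0.00 over all genes. Scaled by library totals alone, 25 members were called higher and 42 lower (8.91% and 18.4% of all genes), so the balance of directions depends on the scaling. Fewer members, like fewer of all genes, were called when either OPC anti-miR-ctl library was left out. Part of the members stayed called with each of the 4 libraries left out, a count not made over all genes. With all 5 groups in a single fit, 39 of 222 members and 2657 of 15496 genes were called. Slc4a10 and Slc9a3r2 of the genes with the smallest p then lost the call. So did Slc4a4, Slc45a3, Slc24a2, Slc6a6, Slc8a3 and Slc38a2 of the glial transporters.

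The 10 genes called lower with the smallest p included several of those lower in control OLs, but the comparison of stages shares the OPC anti-miR-ctl libraries and is not separate evidence for them. Slc28a2, which concentrates nucleosides, fell from 50.9 and 47.9 CPM in the control to 8.47 and 5.54 CPM with the inhibitor, 6.99-fold (log2 difference -2.81 ± 0.19, adjusted p = 1.3e-04). Slc6a12 (BGT1) fell from 98.6 and 79.9 to 13.9 and 7.72 CPM (-3.03 ± 0.26, adjusted p = 2.9e-04), and the dicarboxylate carrier Slc13a3 from 250.0 and 208 to 54.1 and 27.2 CPM (-2.48 ± 0.30, adjusted p = 0.0012). In all 3 the inhibitor libraries were far below both controls. Slc11a1 (NRAMP1) fell from 205 and 172 to 45.6 and 29.4 CPM (-2.31 ± 0.21, adjusted p = 3.4e-04), and the lysosomal peptide carrier Slc15a3 from 46.2 and 43 to 23.2 and 16.7 CPM (adjusted p = 0.0024). Of the 12 microglial markers, 6 were called higher and 5 lower with the inhibitor, Aif1 was at 207 and 219 CPM in the control and 98.3 and 61.4 CPM with the inhibitor, the sum over the list was 1138 and 1057 CPM in the control and 1151 and 921 CPM with the inhibitor, and their part in these falls was not tested.

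The other 5 of that set covered amino acids, glucose, calcium and bicarbonate. The cationic amino acid carrier Slc7a2 fell from 9.31 and 8.41 to 1.79 and 2.88 CPM (-1.90 ± 0.22, adjusted p = 0.0010), and the amino acid carrier Slc36a4 from 22.1 and 18.1 to 10.7 and 10.7 CPM (adjusted p = 0.0022). The glucose transporter Slc2a1 fell from 24.7 and 21.3 to 12.5 and 12.9 CPM (-0.84 ± 0.11, adjusted p = 0.0017). The mitochondrial calcium exchanger Slc8b1 (27.2 and 24.9 to 13 and 9.56 CPM, adjusted p = 0.0019) and the bicarbonate carrier Slc4a10 (89.8 and 84.5 to 44.1 and 55.1 CPM, adjusted p = 0.0025) fell as well. None of these groups overlapped. The serotonin transporter Slc6a4 was called lower at low levels (0.491 and 0.438 to 0.0745 and 0.0908 CPM, adjusted p = 0.0099), as were the chloride exporters Slc12a5 (KCC2, 3.63 and 2.60 to 1.07 and 1.14 CPM, adjusted p = 0.0051) and Slc12a7 (KCC4, 11.3 and 9.18 to 5.73 and 5.58 CPM, adjusted p = 0.0055).

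Of the 10 genes called higher with the smallest p, the glutamine carrier Slc1a5 (ASCT2) rose from 14.7 and 15.3 CPM in the control to 51.1 and 43.8 CPM with the inhibitor, 3.20-fold (log2 difference 1.68 ± 0.12, adjusted p = 1.3e-04). The vesicular carrier of monoamines Slc18a2 rose from 6.55 and 6.06 to 16.6 and 14.2 CPM (1.30 ± 0.13, adjusted p = 5.2e-04), and that of acetylcholine, Slc18a3, from 0.421 and 0.247 to 3.05 and 3.11 CPM (3.19 ± 0.30, adjusted p = 4.2e-04). Each inhibitor library was above both controls for these 3. Of 5 neuronal markers found, 3 were called higher with the inhibitor and none lower, their sum was 77.3 and 74.6 CPM in controls and 119 and 114 CPM with the inhibitor, and their part in the rise of Slc18a2 and Slc18a3 was not tested. Slc29a4, a plasma membrane carrier of monoamines, rose from 43.2 and 39.2 to 85 and 81 CPM (1.02 ± 0.09, adjusted p = 3.0e-04). The fructose transporter Slc2a5 (1.54 and 1.21 to 6.11 and 5.72 CPM, adjusted p = 3.8e-04) and the sugar phosphate carrier Slc37a1 (1.71 and 2.03 to 6.60 and 5.83 CPM, adjusted p = 6.7e-04) rose from low levels. Of the monocarboxylate family, Slc16a11 rose from 2.43 and 2.27 to 9.51 and 8.38 CPM (adjusted p = 2.2e-04) and Slc16a13 from 14.4 and 14 to 28.8 and 24.3 CPM (adjusted p = 0.0017). The remaining genes of this set were Slc45a4, a sugar carrier, at 36.2 and 33.2 CPM in controls and 54.6 and 58.4 CPM with the inhibitor (adjusted p = 0.0014), and Slc9a3r2, a scaffold protein and not a transporter, at 9.22 and 9.78 CPM in controls and 22.5 and 19.2 CPM with the inhibitor (adjusted p = 7.3e-04).

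**Figure D4:**
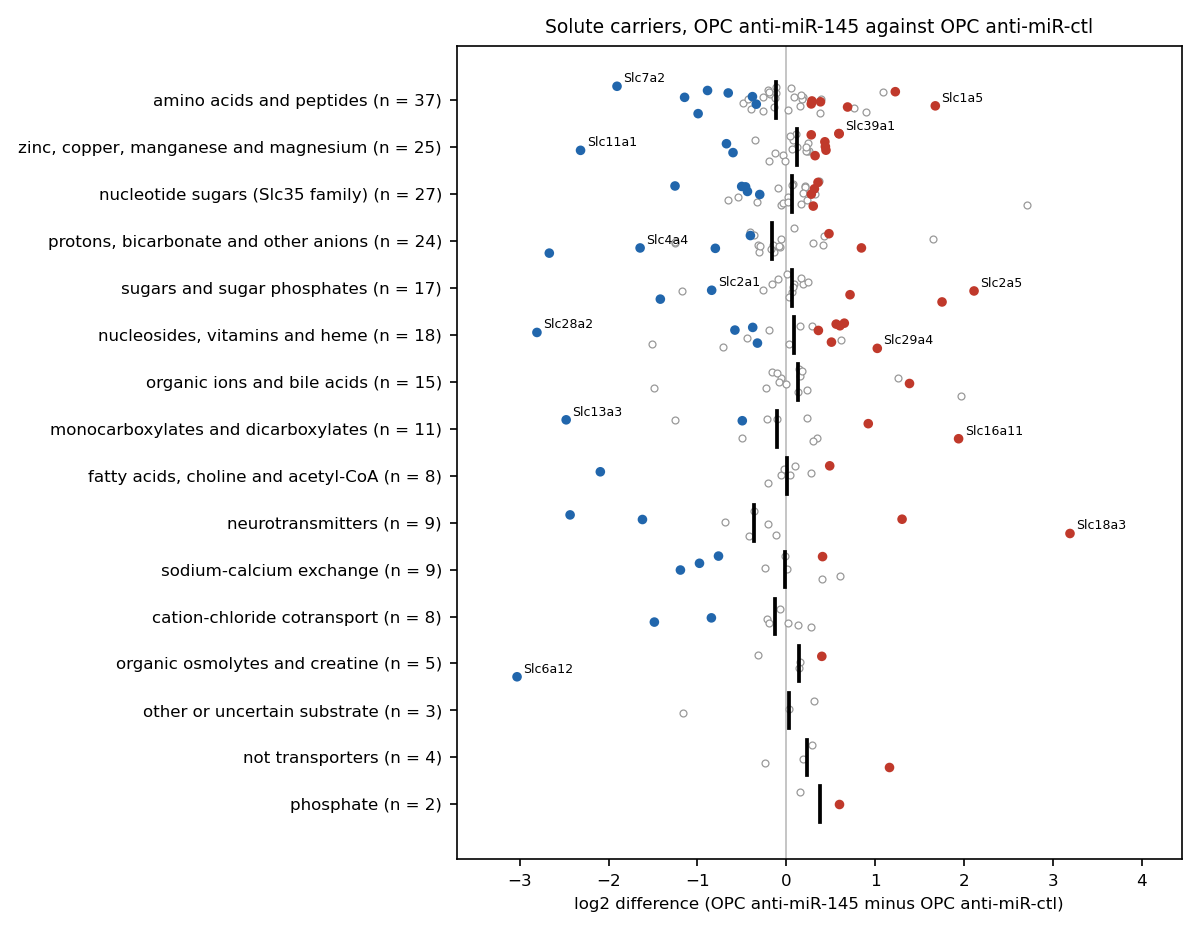
Log2 difference of OPC anti-miR-145 against OPC anti-miR-ctl (x axis) for the 222 solute carriers tested, by class (y axis, n tested). Filled points are called genes, red higher and blue lower with the inhibitor, open points are not called, and black bars are class medians. The 38 genes called higher and 36 called lower spread over most classes, and the labelled points at the far left (Slc6a12, Slc28a2, Slc13a3 and Slc11a1) belong to 4 different classes.

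By class, 7 of 25 metal carriers were called higher and 3 lower (12.1% and 16.0% of all genes, median 0.12). The zinc importer Slc39a1 rose from 127 and 134 to 198 and 192 CPM (adjusted p = 0.0023). Of 18 nucleoside, vitamin and heme carriers 6 were called higher and 4 lower (median 0.09), with Slc29a3 at 12.6 and 11.8 CPM in controls and 19.7 and 18.2 CPM with the inhibitor (adjusted p = 0.0046) and the heme carrier Slc48a1 at 53.7 and 53.7 CPM in controls and 37.2 and 34 CPM with the inhibitor (adjusted p = 0.0043). These 2 moved in opposite directions. Of 37 amino acid and peptide carriers 6 were called higher and 7 lower (median -0.12), and of 24 carriers of protons, bicarbonate and other anions 2 were called higher and 4 lower, with 7 of 24 above 0 (median -0.16). Slc4a4 fell from 3.74 and 3.34 to 0.919 and 1.32 CPM (adjusted p = 0.0028). Of the 8 astrocyte markers 4 were called lower with the inhibitor and 1 higher, and 4 of 8 were above 0 (median -0.01). Their sum was 794 and 763 CPM in controls and 472 and 516 CPM with the inhibitor. Gfap went the other way, from 8.23 and 7.81 to 40.7 and 51.1 CPM. The part of these markers in the fall of Slc4a4 was not tested. Of 9 calcium exchangers 1 was called higher and 3 lower (median -0.01). The medians of all members and of the fatty acid, Slc35, sugar and unclassified groups changed sign with scaling by library totals alone.

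Among the 23 glial transporters, several were called in OPCs with the inhibitor only at modest sizes. Slc8a1 (NCX1) fell from 67.6 and 59.9 to 32 and 42.5 CPM (adjusted p = 0.0068). Slc6a6 (66.5 and 58.5 CPM in controls and 75.1 and 88.2 CPM with the inhibitor), Slc8a3 (28.7 and 30.9 CPM in controls and 35.9 and 42.3 CPM with the inhibitor) and Slc38a2 (229 and 209 CPM in controls and 251 and 279 CPM with the inhibitor) were called higher, with adjusted p-values of 0.030, 0.030 and 0.0495, and all 3 lost the call without either OPC anti-miR-ctl library, with adjusted p-values from 0.081 to 0.46, and also under library totals alone (adjusted p-values of 0.079, 0.070 and 0.13). Slc45a3 (2.39 and 1.81 CPM in controls and 0.968 and 0.590 CPM with the inhibitor, adjusted p = 0.018) and Slc24a2 (2.29 and 1.78 CPM in controls and 0.819 and 1.23 CPM with the inhibitor, adjusted p = 0.044) were called lower at low levels, and without OPC anti-miR-ctl replicate 1 their adjusted p-values were 0.068 and 0.23. The choline, creatine and lactate transporters were not called, with Slc44a1 at 271 and 265 CPM in controls and 296 and 345 CPM with the inhibitor (adjusted p = 0.068), Slc6a8 at 66.5 and 61.5 CPM in controls and 67.5 and 73.1 CPM with the inhibitor (adjusted p = 0.23) and Slc16a1 at 41.2 and 43.4 CPM in controls and 37.9 and 40.2 CPM with the inhibitor (adjusted p = 0.43). Slc12a2, Slc6a9, Slc7a5, Slc3a2, Slc17a5, Slc33a1, Slc37a2 and Slc5a11 were not called either.

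The mimic in OLs and the inhibitor in OPCs share no libraries, so their values for each gene can be set side by side. Of 210 members tested in both, 116 had opposite signs (52.0% of all genes). Of 71 members called with the inhibitor (28.0% of all genes), 42 had the opposite sign with the mimic (15.6% of all genes tested in both met these 2 conditions), and 14 also had an unadjusted p under 0.05 with the mimic (4.97% of all genes). Of those 14, 9 moved in opposite directions (2.8% of all genes), which is 64.3% of them, against 56.4% of the 738 genes that met the same conditions. Lower with the inhibitor and higher with the mimic were 8 members (2.09% of all genes), Slc4a4 (-1.64 ± 0.24 with the inhibitor and 1.74 ± 0.28 with the mimic, log2), Slc13a3 (-2.48 ± 0.30 and 1.32 ± 0.24), Slc45a3 (-1.42 ± 0.32 and 1.82 ± 0.68), Slc38a3 (-0.34 ± 0.08 and 1.59 ± 0.36), Slc48a1 (-0.58 ± 0.09 and 0.60 ± 0.17), Slc8a1 (-0.76 ± 0.14 and 0.43 ± 0.15), Slc23a2 (-0.38 ± 0.11 and 0.34 ± 0.10) and Slc35d1 (-0.30 ± 0.09 and 0.33 ± 0.11). Slc26a2 was the reverse (0.714% of all genes), higher with the inhibitor (0.85 ± 0.22) and lower with the mimic (-0.85 ± 0.19). Slc45a3 was far under 1 CPM in both OL miR-ctl libraries, so its difference with the mimic rests on few reads. Of these 9, Slc4a4, Slc13a3, Slc48a1 and Slc8a1 stayed called in OPCs with each library left out, and the others lost the call without at least 1 OPC anti-miR-ctl library, with adjusted p-values up to 0.27 for Slc35d1. Slc39a1, Slc39a12, Slc41a1 and Slc4a3 were higher in both and Slc7a3 lower in both. In the mimic comparison edgeR without a replicate block called no member after adjustment and DESeq2 called 19. The cells differ in stage and medium as well as in the oligonucleotide. The astrocyte marker sum was also lower with the inhibitor (794 and 763 to 472 and 516 CPM, 4 of 8 markers called lower and 1 higher). The list was divided there, with 4 of 8 markers above 0 and a median log2 difference of -0.01. Slc1a3 went from 404 and 376 to 167 and 203 CPM, while Gfap went from 8.23 and 7.81 to 40.7 and 51.1 CPM. With the mimic the sum was higher (6876 and 5874 to 14461 and 9811 CPM, none called). The part of astrocytes in the opposite directions of the 9 members was not tested.

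**Figure D5:**
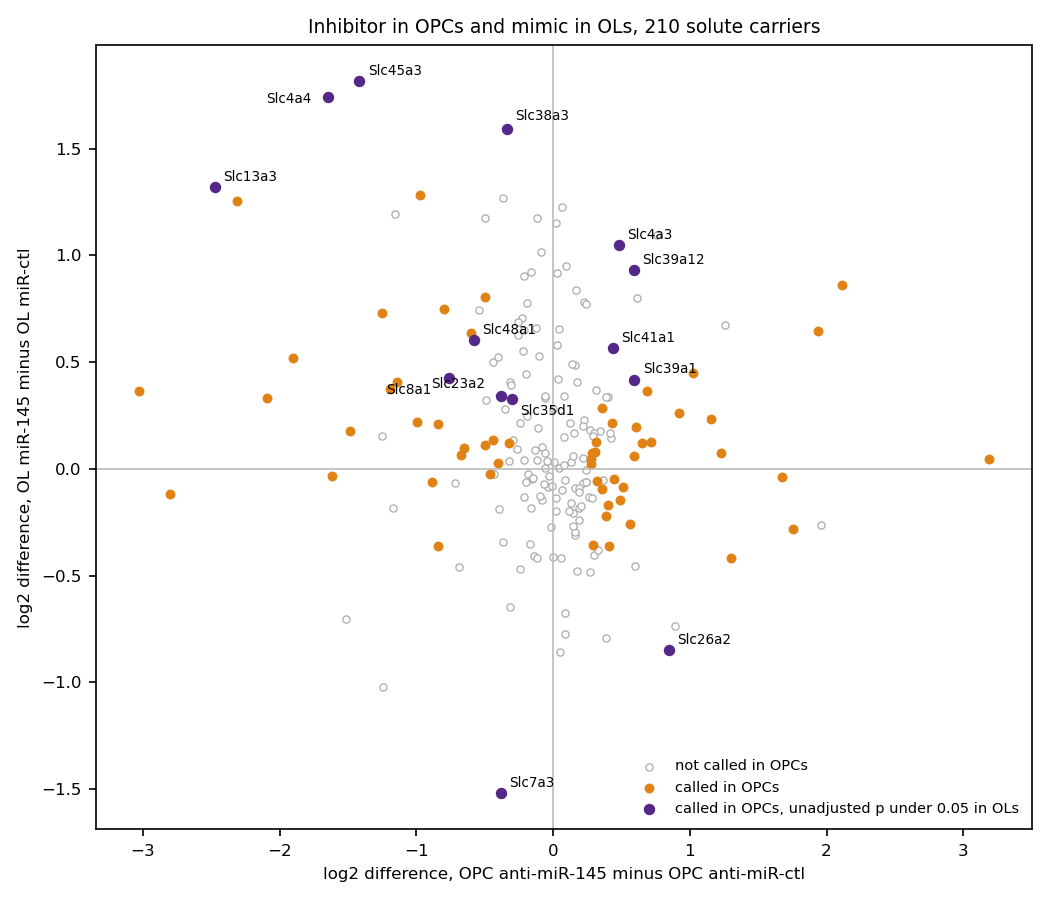
Log2 difference with the inhibitor in OPCs (x axis) and with the mimic in OLs (y axis) for 210 solute carriers tested in both. Open points are not called in OPCs, orange points are called there, and purple points are called there with an unadjusted p under 0.05 in OLs. Of the 14 purple points 8 lie in the upper left part (lower with the inhibitor, higher with the mimic) and 1, Slc26a2, in the lower right.

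Partners of these carriers outside the Slc symbols were listed as well, namely sodium pump subunits, chaperones, regulating kinases and carriers of other name. Of 41 listed, 37 were found. Between control OPCs and OLs, 19 of 36 tested were called higher and 3 lower (28.8% and 28.7% of all genes, median 0.41). The sodium pump, which sets the sodium gradient that many solute carriers use, was higher through its subunit Atp1b2 (91.6 and 83.3 to 1133 and 1024 CPM, adjusted p = 4.4e-05), which is also known from astrocytes. Bsg, the chaperone of lactate transporters, rose from 271 and 281 to 429 and 408 CPM (adjusted p = 0.0024). With the inhibitor in OPCs 6 of 35 were called higher and 9 lower (12.1% and 16.0% of all genes, median -0.08). Atp1b2 rose to 159 and 201 CPM (adjusted p = 8.6e-04). The organic anion carrier Slco4a1 fell from 75.5 and 56.9 to 5.91 and 4.40 CPM (adjusted p = 6.4e-05), and Slco2b1 rose from 2.13 and 2.14 to 19.5 and 16.3 CPM (adjusted p = 5.6e-05). Among 37 partners tested with the miR-145 mimic in OLs, the edgeR test called 0, and 11 passed p under 0.05 before adjustment (13.4% of all genes, median 0.09).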

How the data were processed

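Poly(A) RNA of 10 libraries was sequenced. Per the labels and the study's methods, the authors quantified reads with Salmon 0.12.0 on GENCODE Rnor6.0 transcripts, summed them to genes with tximport, and deposited estimated counts (expected counts), of which 16.0% to 17.5% per library were not whole. These were rounded here. The deposited table of OL miR-145 against OL miR-ctl holds the authors' log2 fold changes and p-values, and it was used for gene symbols only. The methods name a lentivirus for this experiment where the labels name mimics.

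Groups came from the titles. Genes with at least 5 counts in 2 of the 4 libraries compared were tested with edgeR 4.0.16 (TMM, quasi-likelihood) in R 4.3.3, with Benjamini-Hochberg adjustment over all genes tested. The SE of a log2 difference is its size divided by the root of F. Alternatives were DESeq2 1.42.0 and its size factors, library totals, other count filters, a single fit of all 5 groups, a replicate block and leaving out each library. Scripts were tested on simulated data. At totals of 33505706 to 42684206 counts, low counts limit precision for genes under about 1 CPM. With 2 libraries per group, precision is limited above that level too, as for Slc12a2 in OLs.

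Members, classes and gene lists were chosen with earlier results of these data known, and 2 genes were moved to the class of non-transporters after the files were read. Named per comparison were the 10 called genes per direction with the smallest p and no overlap, or, with under 5 called, the 8 with the smallest unadjusted p. The labels do not say that replicate numbers pair libraries. A few genes of the lists are not reported here, and they remain in the counts of members, classes and partners.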

Additional observations from a re-analysis of the deposited data

How the results depend on the processing

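The alternatives were DESeq2, DESeq2 size factors, library totals alone, no filter on low counts, a minimum of 10 counts, a single fit of all 5 groups, a replicate block and leaving out each library, where a lone library was assumed to vary like the others. With the miR-145 mimic the count of called members was 0 and became 19 with DESeq2 (4.2% of all genes) and 1 in the single fit (79 of 15461 genes). With the replicate block it was 56 (44 higher and 12 lower, 14.7% of all genes). With both mimics against OL miR-ctl it was 0, and 3 with DESeq2 (0.687% of all genes) and 7 with the block (0.855% of all genes). Against OL miR-145 it was 0, and 5 with the block (1.19% of all genes). Without any single library these 3 counts stayed at 0. With the inhibitor the count of 74 became 39 in the single fit, ran from 67 to 77 under the other scalings, filters and DESeq2, was 63 with the block, and ran from 40 to 110 without 1 library. The stage comparison gave 143, from 131 to 144 under the other settings (135 with the block), and from 90 to 163 without 1 library. Why the counts fell without an OPC anti-miR-ctl library and rose without others was not tested.

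The replicate numbers are not said to pair libraries. Deviations of same-numbered libraries correlated, over 13337 genes, at 0.40, 0.45 and 0.63 in the 3 OL comparisons, -0.15 with the inhibitor and 0.07 between stages. A crossed pairing of the OPC libraries, added after the data were seen, called 86 of 222 members and 5536 of 15496 genes.

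Under library totals the median of the members turned from 0.05 to -0.076 between stages and from 0.02 to -0.052 with the inhibitor, as did the medians of several classes and the balance of calls (69 higher and 74 lower, and 25 higher and 42 lower). Single genes were checked where the naming rule chose them and, for the glial transporters, in the stage and inhibitor comparisons. Directions turned in these glial transporters, none of them called in that comparison. With the inhibitor, Slc17a5 was at -0.066 under library totals, -0.0076 without a filter, -0.016 with a minimum of 10 counts, and from -0.078 to 0.090 without 1 library. The ranges without 1 library were -0.078 to 0.015 for Slc33a1, -0.21 to 0.027 for Slc37a2 and -0.82 to 0.50 for Slc5a11. Between stages they were -1.30 to 0.26 for Slc24a2, -0.011 to 0.086 for Slc33a1 (-0.089 under library totals) and -0.041 to 0.48 for Slc6a6. Groups of 2 libraries and counts near 0 limit the precision of genes under 1 CPM, for which a missing call does not show equal levels.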
